A study of Mus musculus with 16 samples.

Results

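The genes described are 9 of the transforming growth factor beta (TGF-beta) pathway, taken by their listed symbols from the 57180 genes counted in whole lungs of mouse fetuses. They are the ligands Tgfb1, Tgfb2 and Tgfb3, the receptors Tgfbr1, Tgfbr2 and Tgfbr3, the latency protein Ltbp1, the matrix target Tgfbi and the feedback inhibitor Smad7. All 9 were among the 17276 genes that passed the filter on low counts. Messenger RNA was sequenced from 16 lungs at embryonic day E14.5, given as male in the design text. The lungs form 4 groups of 4 libraries: C57BL/6J (B6) control, B6 with BMS493, A/J control and A/J with BMS493. BMS493, an inverse agonist that lowers the basal activity of every retinoic acid receptor type, was given to dams by mouth at 3.75 µg per g per day from E9.5 to E14.5, while control dams took corn oil. Both strains are inbred and no group carries an engineered allele. Litters are not named in the labels, so p-values measure the spread between these libraries.

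TGF-beta ligands are secreted in a latent complex, bound to their own propeptide and often to a latent TGF-beta binding protein such as Ltbp1, which anchors the complex in the matrix. Once released, a ligand joins the type II receptor Tgfbr2 to the type I receptor Tgfbr1, whose kinase phosphorylates Smad2 and Smad3. These enter the nucleus with Smad4 and switch on targets, among them Tgfbi and the inhibitor Smad7. In the fetal lung the pathway acts on branching, on the mesenchyme and on smooth muscle, and retinoic acid is known to restrain it when the lung buds form.

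Each library held between 20105760 and 31838104 fragments, of which 15207539 to 24146224 fell in genes. Cyp26b1, a retinoic acid-degrading enzyme induced by retinoic acid, Dhrs3 and Rarb served as a check of treatment. Cyp26b1 lay at 13.2 to 24.5 CPM (counts scaled to a common library size) in B6 controls and at 1.10 to 2.47 CPM in B6 with BMS493, and at 14.98 to 27.4 against 0.756 to 1.34 CPM in A/J. Dhrs3 lay at 17.02 to 19.5 against 4.34 to 9.54 CPM in B6 and at 15.43 to 20.65 against 3.67 to 4.96 CPM in A/J. Rarb lay at 7.89 to 9.51 against 2.68 to 6.67 CPM in B6 and at 7.94 to 10.17 against 2.56 to 3.98 CPM in A/J. Within B6 with BMS493, replicate 3 was the highest for each of these genes. Replicate 3 of B6 with BMS493 stood apart on the second principal component, which held 7.29% of the variance, and values that it carries are given without it as well. Markers of thymus summed to at most 0.393 CPM in any library, those of liver to at most 12.5 CPM and the 4 heart markers to between 4.37 and 33.6 CPM, of which Nppa was at 0 in every library.

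Between genes, levels were compared as CPM per kilobase of all annotated exons, averaged over the 16 libraries. Tgfbi (ENSMUSG00000035493, chromosome 13), which codes for a secreted matrix protein, stood highest at 90.8 CPM per kilobase. Tgfb2 (ENSMUSG00000039239, chromosome 1) had 25.4 and Tgfb3 (ENSMUSG00000021253, chromosome 12) 23.1 CPM per kilobase. The kinase receptors were nearly level, Tgfbr1 (ENSMUSG00000007613, chromosome 4) at 17.96 and Tgfbr2 (ENSMUSG00000032440, chromosome 9) at 17.74 CPM per kilobase. Ltbp1 (ENSMUSG00000001870, chromosome 17) followed at 13.0 and Smad7 (ENSMUSG00000025880, chromosome 18) at 11.04. The co-receptor Tgfbr3 (ENSMUSG00000029287, chromosome 5), also named betaglycan, had 7.60 and Tgfb1 (ENSMUSG00000002603, chromosome 7) 6.91 CPM per kilobase. Over the longest coding transcript alone, Tgfb1 came to 16.02 CPM per kilobase, since its exon union of 5042 bases is longer than that transcript of 2175 bases, so its place in this order depends on the length used. Ltbp1 came to 20.8 CPM per kilobase in the same way, above Tgfbr1 (20.4) and Tgfbr2 (17.95), so its place depends on it too. The 9 genes varied little: the highest library exceeded the lowest by 1.28-fold for Tgfbi and by 1.70-fold for Smad7, the ends of that range.

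**Figure D1:**
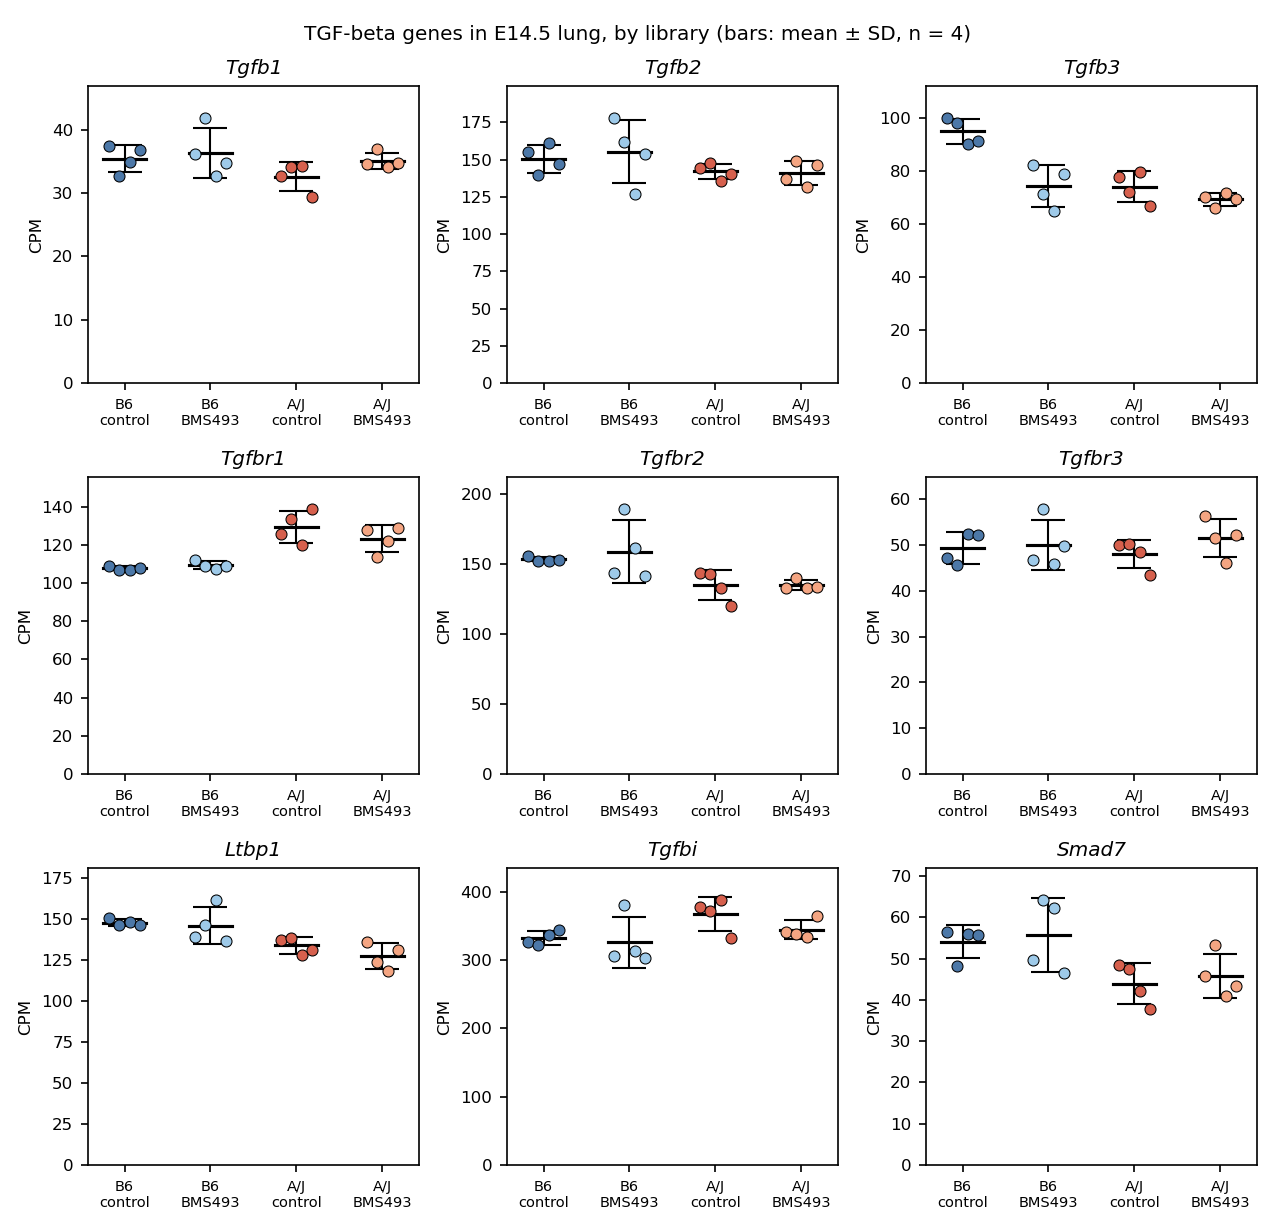
CPM (linear axis from 0) of the 9 genes in each of the 16 libraries, by strain and treatment. Points are libraries and bars the mean ± SD of 4. Tgfb3 is highest in the 4 B6 control libraries (90.4 to 100.2 CPM), and Tgfbr1 is higher in all A/J than in all B6 libraries.

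With BMS493 in B6, Tgfb3 fell and the other 8 genes did not pass the test. Tgfb3 is the ligand known for its need in palate fusion and in lung growth before birth. It was at 100.2, 98.1, 90.4 and 91.5 CPM in the B6 controls and at 82.4, 71.3, 64.9 and 78.9 CPM in B6 with BMS493. All 4 treated libraries lay below all 4 controls. The means were 95.03 ± 4.85 and 74.4 ± 7.82 CPM (SD, n = 4), a log2 fold change of -0.35 (SE 0.07), or a level lower by 21.7% (95% interval of the change -29.3% to -13.2%), with an adjusted p = 0.021 in edgeR. It was 1 of 9 genes called, where 0.423% of all genes tested were called in this comparison. That background was 73 genes. With 1 library left out it ranged from 27 without B6 control replicate 1 (0.153%) to 201 without B6 BMS493 replicate 1 (1.14%). With no filter on low counts it was 260 (0.743%).

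The Tgfb3 call sat near the threshold. It was lost without B6 control replicate 1 (log2 fold change -0.33, adjusted p = 0.101), without B6 control replicate 2 (-0.34, 0.0998), without B6 BMS493 replicate 2 (-0.33, 0.0779), with the counts of strand column 3 alone (-0.29, 0.111) and in a fit of only the 8 B6 libraries (-0.35, 0.12). Without B6 BMS493 replicate 3, the library that stood apart, it was kept (-0.30, 0.0401). Over all 18 alternatives the log2 fold change stayed between -0.40 and -0.29, with adjusted p from 0.000379 to 0.12 in edgeR or DESeq2. Smooth muscle markers, summed over 6 genes, lay at 1046 to 1116 CPM in B6 controls and at 854 to 1043 CPM in B6 with BMS493, and 1 of the 6 was called, lower. The A/J sums were 842 to 1056 CPM in controls and 808 to 920 CPM with BMS493, which overlapped, and none was called. Yet the shift was not particular to B6: across the 6 genes, BMS493 gave a middle value of -0.22 there and -0.21 in A/J on the log2 scale. The 4 skeletal muscle markers summed to 56.6 to 62.8 CPM in B6 controls and to 34.4 to 52.8 CPM in B6 with BMS493. Of these 4, 3 had a mean under 1 CPM in both groups, and the 1 tested was not called. The A/J sums of these 4 overlapped, at 37.4 to 56.8 CPM in controls and 46.2 to 58.3 CPM with BMS493. The part of these cells in the Tgfb3 difference was not tested. In whole-organ RNA, fewer cells of a type and less RNA per cell cannot be told apart.

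In A/J, Tgfb3 was at 77.99, 72.3, 79.8 and 66.9 CPM in controls and at 70.2, 65.9, 71.6 and 69.7 CPM with BMS493. These groups overlapped. The log2 fold change was -0.10 (SE 0.07, adjusted p = 0.959 in edgeR), with a 95% interval of -0.25 to 0.05. None of the 9 genes was called in A/J by edgeR or DESeq2, where 0.486% of all genes tested were called. An unadjusted p under 0.05 in edgeR was found for 0 of the 9, beside 1076 of 17276 over all genes. Averaged over both strains, Tgfb3 alone of the 9 was called, at -0.23 (SE 0.05, adjusted p = 0.0181 in edgeR), against 1.37% of all genes. That call was lost without B6 control replicate 1 (adjusted p = 0.0529), B6 control replicate 2 (0.0528) or A/J control replicate 1 (0.0507), among adjusted p from 0.00214 to 0.0529 over 25 alternatives.

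The test of the difference between the strains' responses called none of the 9 genes, against 0.00579% of all genes, which is 1 gene. DESeq2 also called none. In edgeR 1 of the 9, Tgfb3, had an unadjusted p under 0.05, beside 636 of 17276 over all genes. For Tgfb3 the response in A/J minus that in B6 was 0.25 on the log2 scale (SE 0.10, 95% interval 0.04 to 0.46, unadjusted p = 0.0194, adjusted p = 0.999 in edgeR). A different response of Tgfb3 in the strains was therefore not shown.

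The count of Tgfb3 may be incomplete in these files. Of its exon bases, 12.4% lie opposite the exons of the predicted genes Gm37804 and Gm48008, and a fragment there, counted without strand, was set aside as ambiguous. Comparing the strand-wise counts with the count without strand, 26.5% ± 2.33 (SD, n = 16) of the fragments counted for Tgfb3 by strand were set aside. Since the libraries do not keep strand, the gene that these fragments came from cannot be told. In B6 the share was 25.3% without and 28.3% with BMS493, and in A/J 26.3% and 26.1%. Replicate 3 of B6 with BMS493 had 33.4%, and without it the share in that group was 26.7% ± 0.265 (SD, n = 3). The predicted genes themselves held 0 to 6 (Gm37804) and 0 to 9 (Gm48008) counts per library without strand. With both strand-wise counts summed they held 261 to 486 and 198 to 347. The third of the 7 exons of Tgfb3 is shown because it lies wholly under Gm37804, so that it added nothing to the count. It is 130 bases long, all of them coding, at chr12:86069347-86069476 on the minus strand of GRCm38 (the counts themselves were made on GRCm39). It is written 5′ to 3′ as the gene reads, with no part in capitals.
Tgfb3 exon 3: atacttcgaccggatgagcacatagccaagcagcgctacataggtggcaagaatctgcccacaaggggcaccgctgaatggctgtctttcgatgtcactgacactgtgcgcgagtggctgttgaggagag

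With both strand-wise counts summed, a setting chosen after seeing the data, Tgfb3 was at 111.5 to 124.2 CPM in B6 controls and at 90.4 to 104.6 CPM in B6 with BMS493. The groups again did not overlap. The log2 fold change was -0.30 (SE 0.07, adjusted p = 0.0372 in edgeR). In A/J the summed values were 87.24 to 99.97 CPM in controls and 80.5 to 92.3 CPM with BMS493, which overlapped. On this count Tgfb3 came to 31.4 CPM per kilobase against 26.8 for Tgfb2, so the order of these 2 ligands turned with the counting.

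**Figure D2:**
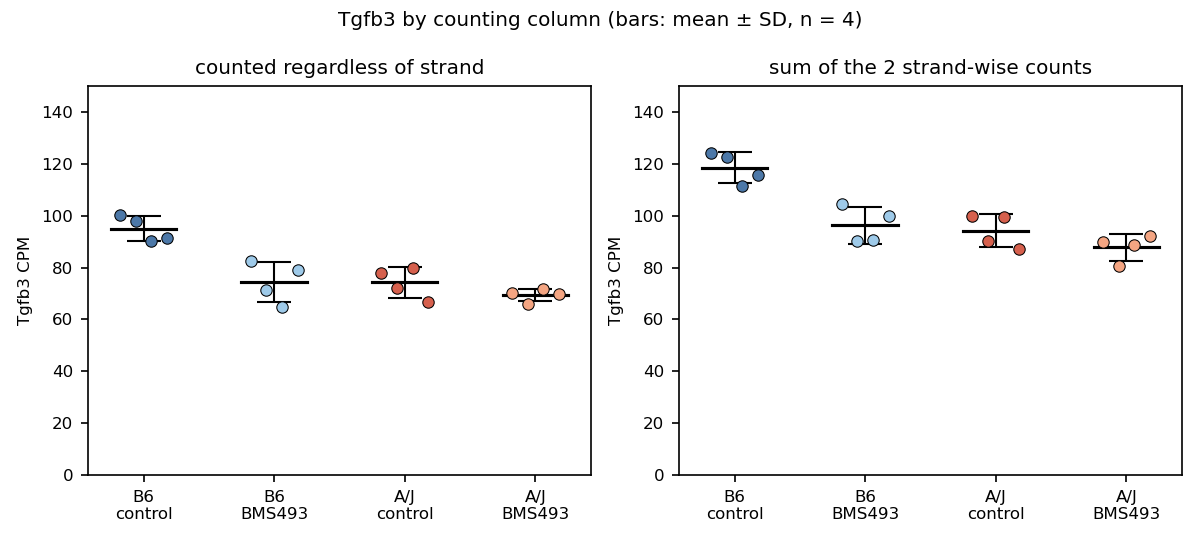
Tgfb3 in CPM (linear axis from 0) by library, from the count without strand (left) and from the sum of both strand-wise counts (right). Points are libraries and bars the mean ± SD of 4. In both panels every B6 library with BMS493 lies below every B6 control, and the A/J groups overlap.

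The remaining ligands did not pass the test with BMS493. Tgfb1, the ligand tied most closely to immune control and fibrosis, was at 37.4, 32.6, 34.8 and 36.7 CPM in B6 controls and at 36.2, 41.9, 32.6 and 34.8 CPM with BMS493. In A/J it was at 32.6, 34.1, 34.2 and 29.3 against 34.6, 36.9, 34.1 and 34.7 CPM. Tgfb2, whose loss affects heart, skeleton and lung at birth, was at 154.8, 139.8, 161.2 and 146.7 CPM in B6 controls and at 178.0, 161.6, 127.2 and 153.7 CPM with BMS493. The groups overlapped for both genes in both strains. About 5.07% of the fragments counted for Tgfb2 by strand were set aside because of the opposite gene Gm29491. Within the summed CPM of the 3 ligands, Tgfb3 made up 33.8% ± 1.97 in controls and 28.04% ± 1.55 with BMS493 in B6, and 29.8% ± 1.78 and 28.3% ± 1.69 in A/J (SD, n = 4).

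The ligands are paralogs, and their coding sequences were compared to see whether fragments could be exchanged between them. The longest identical run was 10 bases between Tgfb1 and Tgfb2, and 15 bases between Tgfb3 and either of the others. The 60-base stretches around the run shared by Tgfb1 and Tgfb3, identical at 46 of 60 bases, are shown for that reason. They come from GENCODE M21 transcripts, with the shared run in capitals.
Tgfb1: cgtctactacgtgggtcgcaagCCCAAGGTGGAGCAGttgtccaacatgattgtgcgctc
Tgfb3: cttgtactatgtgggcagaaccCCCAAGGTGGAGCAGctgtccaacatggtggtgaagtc

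The 3 receptors, Ltbp1, Tgfbi and Smad7 did not pass the test with BMS493 in either strain. Tgfbr1 was at 106.8 to 109.1 CPM in B6 controls and at 107.3 to 112.0 CPM with BMS493, with a log2 fold change of 0.02 (95% interval -0.10 to 0.14). In A/J it was at 119.7 to 138.8 and 113.5 to 129.0 CPM, at -0.07 (-0.19 to 0.04). Tgfbr2 was at 0.05 (-0.10 to 0.20) in B6 and was at 0.00 in A/J (-0.15 to 0.15). The co-receptor Tgfbr3, which presents ligands, Tgfb2 above all, to the kinase receptors, had log2 fold changes of 0.02 and 0.10. Those of Ltbp1 were -0.02 in B6 and -0.07 in A/J, those of Tgfbi -0.03 and -0.09, and those of Smad7 0.04 and 0.06. For the 8 genes other than Tgfb3 the 95% intervals in B6 all lay between -0.17 and 0.26 on the log2 scale, and those of all 9 genes in A/J between -0.25 and 0.28. The median log2 fold change of the 9 was 0.02 in B6 and -0.01 in A/J, beside 0.01 and 0.00 over all genes tested.

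**Figure D3:**
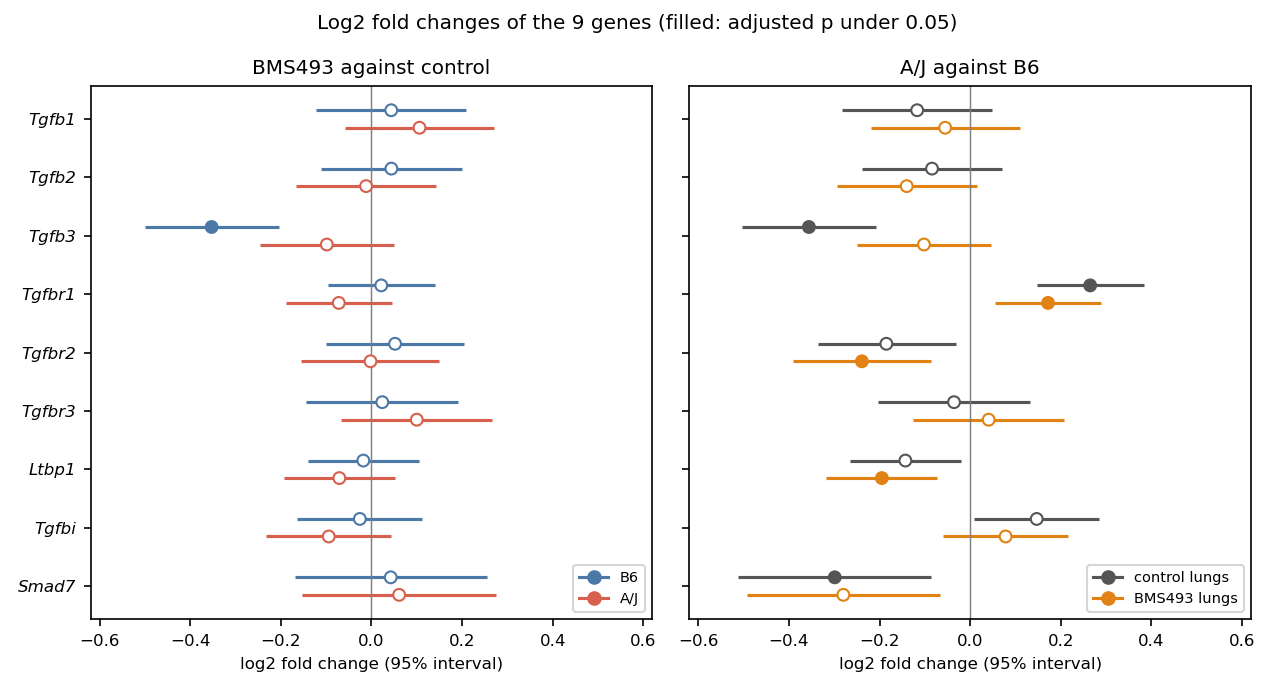
Log2 fold changes with 95% intervals for the 9 genes, with BMS493 against control in each strain (left) and A/J against B6 in each treatment (right), and filled points for adjusted p under 0.05. Tgfb3 in B6 (-0.35) is the filled point on the left. On the right Tgfbr1 lies to the right of 0 in both treatments.

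Between the strains without BMS493, Tgfb3 and Smad7 were lower in A/J and Tgfbr1 was higher, 3 of 9 genes where 16.9% of all genes tested were called. Tgfbr1 codes for the type I receptor kinase ALK5. It was at 109.1, 107.0, 106.8 and 107.7 CPM in B6 controls and at 125.5, 133.5, 119.7 and 138.8 CPM in A/J controls. The groups did not overlap, and the log2 fold change of A/J against B6 was 0.27 (SE 0.06, adjusted p = 0.0016 in edgeR). Tgfb3 had 95.03 ± 4.85 CPM in B6 and 74.2 ± 5.87 CPM in A/J controls (SD, n = 4), without overlap, at -0.36 (SE 0.07, adjusted p = 0.000813 in edgeR). The B6 controls enter both this difference and the BMS493 effect in B6, so the 2 Tgfb3 values share libraries. The calls of Tgfbr1 and Tgfb3 held in all 18 alternatives, with adjusted p of at most 0.0084 and 0.00561.

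Smad7, an inhibitor that blocks the type I receptor and recruits ligases that mark it for degradation, was at 56.6, 48.2, 56.0 and 55.9 CPM in B6 controls and at 48.4, 47.4, 42.1 and 37.9 CPM in A/J controls. The groups overlapped by 1 library, since the lowest B6 library lay below the highest of A/J. The log2 fold change was -0.30 (SE 0.10, adjusted p = 0.0487 in edgeR). This call was lost in 10 of 18 alternatives, with adjusted p from 0.00287 to 0.252: without B6 control replicate 1 (0.125), 3 (0.11) or 4 (0.111), without A/J control replicate 3 (0.11) or 4 (0.175), and under 5 other settings. In the same libraries Tgfbr2 was at 152.1 to 155.5 CPM in B6 and 120.1 to 143.3 CPM in A/J, and Ltbp1 at 146.1 to 150.4 and 128.2 to 138.7 CPM. Neither gene's groups overlapped, yet neither passed the test, with log2 fold changes of -0.18 (adjusted p = 0.0906 in edgeR) and -0.14 (0.107).

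Between the strains with BMS493, Tgfbr1 was again higher in A/J and Tgfbr2 and Ltbp1 were lower, 3 of 9 genes where 20% of all genes tested were called. Tgfbr1 was at 107.3 to 112.0 CPM in B6 and 113.5 to 129.0 CPM in A/J, at 0.17 (SE 0.06, adjusted p = 0.0348 in edgeR). Tgfbr2, the receptor that binds ligand first, was at 143.2, 189.1, 161.3 and 141.0 CPM in B6 and at 132.8, 139.8, 132.3 and 133.2 CPM in A/J, at -0.24 (SE 0.07, adjusted p = 0.023 in edgeR). All 4 A/J libraries lay below all 4 of B6. Ltbp1 was at 139.3, 146.5, 161.7 and 136.5 CPM in B6 and at 136.2, 123.9, 118.6 and 131.0 CPM in A/J, at -0.20 (SE 0.06, adjusted p = 0.0213 in edgeR). Tgfb3 was at -0.10 (adjusted p = 0.357 in edgeR) and Smad7 at -0.28 (0.0576).

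Of these calls in BMS493 lungs none held in every alternative. Without B6 BMS493 replicate 2, the library with the highest Tgfbr2, that gene's log2 fold change was -0.14 (adjusted p = 0.153, in a range of 0.00657 to 0.153 over 18 alternatives). Without B6 BMS493 replicate 3, the library that stood apart, Ltbp1 was at -0.15 (0.0576) and Tgfbr1 at 0.16 (0.0539), both no longer called, and Tgfb2 was called at -0.23 (0.00972). Their ranges of adjusted p over 18 alternatives were 0.011 to 0.0932 for Ltbp1, 0.0142 to 0.121 for Tgfbr1 and 0.00972 to 0.575 for Tgfb2. Without A/J BMS493 replicate 3 none of the 9 was called. Without A/J BMS493 replicate 1, 2 or 4 the count was 1, 3 and 1.

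With BMS493, Tgfbr1 was higher and Tgfbr2 lower in A/J, while in controls only Tgfbr1 of the kinase receptors passed the test. The ratio of Tgfbr1 to Tgfbr2 in CPM was 0.703 ± 0.00156 in B6 controls and 0.968 ± 0.128 in A/J controls (SD, n = 4), with 0.702 to 0.705 against 0.876 to 1.15 over libraries. With BMS493 it was 0.699 ± 0.0973 in B6 and 0.916 ± 0.0724 in A/J, with 0.576 to 0.782 against 0.812 to 0.969. In both treatments all A/J libraries lay above all B6 libraries. These ratios describe the same counts as the fold changes above.

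Markers of several cell types moved with the strain as well. Those of endothelium, summed over 8 genes, lay at 1266 to 1363 CPM in B6 controls against 923 to 1105 CPM in A/J controls, of which 7 of 8 were called, lower. With BMS493 they lay at 1186 to 1480 CPM in B6 against 912 to 1102 CPM in A/J, with 8 of 8 called lower. Tgfbr2 is known to be expressed in endothelium and mesenchyme. The part of endothelial cells in the lower Tgfbr2, Ltbp1 and Smad7 was not tested. The 6 lung mesenchyme markers summed to 3855 to 4066 CPM in B6 controls and 2195 to 2995 CPM in A/J controls, with 3 called lower in A/J. With BMS493 they summed to 3372 to 6380 and 2761 to 3030 CPM, the highest value being B6 replicate 3, with 3 called lower and 1 higher. The 6 lung epithelium markers summed to 940.1 to 1102 CPM in B6 and 658 to 794 CPM in A/J controls (2 called, lower), and to 954 to 1907 and 720 to 880 CPM with BMS493 (3 called, lower). The sum of the 5 erythroid markers lay the other way, at 1103 to 1526 CPM in B6 and 1612 to 2709 CPM in A/J controls (1 called, higher), and at 1028 to 1483 and 1545 to 2512 CPM with BMS493 (none called). The median log2 fold change of the 5 was -0.01 in controls and 0.33 with BMS493. The 5 mast cell markers summed to 89.9 to 101.0 CPM in B6 and 59.4 to 72.1 CPM in A/J controls (1 called, lower), and to 75.7 to 114.5 and 61.4 to 68.2 CPM with BMS493 (2 called higher and 1 lower). The median log2 fold change of the 4 tested was -0.47 in controls and 0.59 with BMS493, where it ran against the sum. Summed macrophage markers with BMS493 (93.5 to 102.7 CPM in B6, 108.0 to 119.6 in A/J) and mesothelium markers in controls (87.7 to 93.64 and 93.98 to 109.4 CPM) did not overlap between strains either. Single markers of both lists went both ways, with 2 called higher and 1 lower for macrophages, and 1 higher and 1 lower for mesothelium. The part of these cells was not tested either.

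Promoters of the kinase receptors are shown because in BMS493 lungs these genes passed the test between strains in opposite directions (in controls Tgfbr2 did not pass). RefSeq promoters on GRCm38.p6, a C57BL/6J sequence, were found for 6 of the 9 genes. Each window holds the 250 bases before a start. Capitals mark CAGAC, the short box that Smads bind, and AGTTCA, a half-site of retinoic acid receptors, on either strand.
Tgfbr1, chr4:47352972-47353221, plus strand: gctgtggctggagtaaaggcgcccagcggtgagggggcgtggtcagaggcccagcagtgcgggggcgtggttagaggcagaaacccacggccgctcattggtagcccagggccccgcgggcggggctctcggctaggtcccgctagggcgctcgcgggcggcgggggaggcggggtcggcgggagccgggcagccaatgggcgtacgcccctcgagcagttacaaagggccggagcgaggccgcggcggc
Tgfbr2, chr9:116175364-116175613, minus strand: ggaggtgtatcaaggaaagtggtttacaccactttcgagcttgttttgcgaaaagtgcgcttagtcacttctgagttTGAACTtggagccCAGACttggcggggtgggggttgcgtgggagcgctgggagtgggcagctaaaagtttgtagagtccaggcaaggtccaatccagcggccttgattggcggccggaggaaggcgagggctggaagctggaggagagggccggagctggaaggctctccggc

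The Tgfbr1 window was 74.8% G and C with 29 CpG sites and held none of the motifs searched, while that of Tgfbr2 was 58.4% G and C with 12 CpG sites and held 1 CAGAC and 1 AGTTCA. A further Tgfbr1 start in the table had 1 CAGAC. The Smad box occurred in 42.2% and AGTTCA in 11.8% of the 32851 promoter windows of the table, so single matches were common. The half-site AGGTCA (14.0% of windows), the palindrome GTCTAGAC (0.167%), and direct repeats of AGGTCA or AGTTCA with gaps of 5 (0.033%) or 2 bases (0.037%) were in no window of the 6 genes. No A/J sequence was compared.

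Other genes of the pathway were counted in 5 lists with 77 genes, of which 75 were tested. With BMS493 in B6, 1 gene was called, lower, where 0.423% of all genes were called: Dcn, which codes for decorin, a proteoglycan that binds TGF-beta, at 90.4 to 96.9 CPM in controls and 46.7 to 62.8 CPM with BMS493 (log2 fold change -0.80, SE 0.09, adjusted p = 2.46e-05 in edgeR). Dcn was called in each fit that left out 1 library. Without B6 BMS493 replicate 3, Acta2 (-0.33, adjusted p = 0.0421) and Bambi (-0.28, 0.0261) were called in B6 too. DESeq2 called 4 of the pathway genes in B6: Dcn, Acta2 (-0.30, adjusted p = 0.0195) and Cnn1 (-0.36, 0.0301), which were lower, and the fibrillin gene Fbn2 (0.28, 0.0172), which was higher. With no filter on low counts edgeR called these 4 and Dab2 (-0.29, 0.00756). Dab2 was also called, lower, without B6 BMS493 replicate 1, and Fbn2, higher, with strand column 3 (0.29, adjusted p = 0.049 in edgeR). With BMS493 in A/J, 2 were called, both lower, where 0.486% of all genes were called (0.295% without A/J BMS493 replicate 3). Lrrc32 codes for GARP, which holds latent TGF-beta at the cell surface, and was at 6.81 to 11.3 CPM in controls and 5.30 to 6.47 CPM with BMS493 (-0.60, SE 0.14, adjusted p = 0.046 in edgeR). Bambi, a decoy receptor without a kinase, was at 71.6 to 74.8 and 53.8 to 62.8 CPM (-0.34, SE 0.07, adjusted p = 0.0163 in edgeR). Neither gene's groups overlapped. The call of Lrrc32 was lost in 7 of the 8 fits that left out 1 A/J library (adjusted p from 0.00576 to 0.268) and that of Bambi in 3, without A/J control replicate 1 or A/J BMS493 replicate 1 or 3 (0.0153 to 0.115 over the 8). Over these fits the count was 0 to 3. Mmp2 was called in A/J, lower, in 4 of 18 alternatives (adjusted p from 0.0285 to 0.81 in edgeR or DESeq2). The 5 mesothelium markers summed to 93.98 to 109.4 CPM in A/J controls and 77.7 to 89.5 CPM in A/J with BMS493, with none called. Of the 4 mast cell markers tested, 3 were called, higher. The sum of all 5 overlapped, at 59.4 to 72.1 CPM in A/J controls and 61.4 to 68.2 CPM in A/J with BMS493. The part of these cells in the A/J calls was not tested.

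Averaged over both strains, 6 of the 75 were called and all were lower with BMS493. Over all genes 1.37% were called, and 189 of those 237 genes were lower too. Without B6 BMS493 replicate 1 these were 257 of 371, and with no filter on low counts 298 of 487. Besides Dcn (-0.53), Lrrc32 (-0.45) and Bambi (-0.27), these were the matrix protease Mmp2 (-0.23) and the contractile genes Cnn1 (-0.29) and Acta2 (-0.26). With 1 of the 16 libraries left out the count was 4 to 8, and the call of Mmp2 was lost in 9 of these 16 fits and that of Cnn1 in 2, without B6 control replicate 2 or A/J control replicate 2. With no filter on low counts edgeR called 9 of the 75, 7 lower and 2 higher. The 2 were Fbn2 (0.15, adjusted p = 0.0244) and Cdkn2b (1.28, 0.0338), which had a mean of at most 1.11 CPM in any group. Acta2 and Cnn1 also stand among the smooth muscle markers given beside Tgfb3, of which 3 of 6 were called, lower, when averaged. In edgeR none of the 9 Smads and partners tested and none of the 13 feedback genes was called with BMS493 in either strain or averaged, and 0, 1 and 1 of the Smads and partners and 0, 1 and 2 of the feedback genes had an unadjusted p under 0.05 in B6, in A/J and averaged. Over all 17276 genes tested, 1573, 1076 and 1868 had such a p, in the same order. Smad3, which the type I receptor phosphorylates, was near the threshold when averaged over strains (-0.16, adjusted p = 0.0507 in edgeR), and it was called, lower, in 10 of 25 alternatives (adjusted p from 0.00732, in DESeq2, to 0.173). In A/J alone DESeq2 called it (-0.21, adjusted p = 0.036), the 1 of 18 alternatives that did. The 24 targets tested had a median log2 fold change of 0.06 in B6 and 0.02 in A/J, with none called by edgeR. Of them 5 and 3 had an unadjusted p under 0.05, beside 1573 and 1076 of 17276 over all genes. DESeq2 called Acta2 and Cnn1 in B6. The strain difference of the BMS493 effect was called for none of the 75 by edgeR or DESeq2. In edgeR 5 of the 75 had an unadjusted p under 0.05, beside 636 of 17276 over all genes. With no filter on low counts edgeR called the strain difference for Dcn (0.55, adjusted p = 0.00236).

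Between control strains, 24 of the 75 passed the test, 5 with more and 19 with less RNA in A/J, with a median of -0.06 beside 0.01 over all genes. The share called among all genes tested was 16.9%, of which 1216 had more and 1700 less RNA in A/J. Among targets, 8 fell below B6 and 2 lay above it in A/J controls, with a list median of -0.30. Lox, which crosslinks collagen and elastin, was at 461.9 to 516.4 CPM in B6 and 217.6 to 234.6 CPM in A/J (-1.11, SE 0.08, adjusted p = 3.74e-10 in edgeR). The cell cycle inhibitor Cdkn1a (-0.76), the collagens Col1a1 (-0.75) and Col3a1 (-0.49), the matricellular Postn (-0.67), Tgfb1i1 (-0.50), Acta2 (-0.35) and Tsc22d1 (-0.26) were also lower, and the collagen receptor subunit Itga11 (0.71) and Timp3 (0.49) were higher. Col1a1 is also one of the mesenchyme markers. Of the 24 calls, 15 held with each of the 8 libraries left out in turn. The calls of Col1a1 (lost in 7 of 8 fits, adjusted p 0.0422 to 0.0921), Col3a1 (6), Cdkn1a (6), Itga11 (5), Map3k7 (4) and Postn (2) did not. Those of Acvrl1 and Ltbp3 were lost without A/J control replicate 4 and that of Tab1 without B6 control replicate 2. The count ranged from 16 (without A/J control replicate 4) to 26, and a fit of only the 8 control libraries called 34.

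Of the 19 latency and activation genes, 4 were lower in A/J controls: the latent TGF-beta binding proteins Ltbp2 (-1.48) and Ltbp3 (-0.45), Lrrc32 (-0.57) and the protease Mmp14 (-0.27). The integrin subunit Itgav (0.36), part of the integrins that free latent TGF-beta, was higher. Among the 10 receptor partners the proteoglycans Bgn (-0.63), Dcn (-0.62) and Fmod (-0.53) and the endothelial type I receptor Acvrl1 (-0.60) were lower. Of the feedback genes, Nedd4l (-0.64), Ldlrad4 (-0.52) and Pmepa1 (-0.47) were lower. The kinase Map3k7 (0.19) and its partner Tab1 (0.28), of a branch that does not pass through Smads, were higher.

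With BMS493, 28 of the 75 differed between strains, 6 higher and 22 lower in A/J, with a median of -0.11 beside 0.00 over all genes. The share called among all genes tested was 20%, of which 1370 had more and 2077 less RNA in A/J. Among targets, 10 were lower and 2 higher, and those with the largest changes were Lox (-1.14), the elastin gene Eln (-0.98), Itga11 (0.96), Col1a1 (-0.73) and Postn (-0.65). Replicate 3 of B6 with BMS493 carried part of these: it had 5613 CPM of Col1a1, against 2554 to 2840 in the other 3 libraries. Without it Col1a1 was at -0.39 and Col3a1 at -0.24 in place of -0.47, both still called (though each was lost in 4 of the 8 fits that left out 1 library, without any one of the A/J libraries), while Eln (-0.68, adjusted p = 0.114) and Postn (-0.66, 0.0501) were no longer called and Lox was at -1.20. The latency genes Ltbp2 (-2.00), Lrrc32 (-0.87), Itgb6 (-0.84), Ltbp3 (-0.46) and Mmp14 (-0.27) were lower and Itgav (0.26) was higher. Itgb6 codes for the epithelial subunit of an integrin that activates TGF-beta. Receptor partners called were Acvrl1 (-0.61), Fmod (-0.58) and Bgn (-0.48), all lower, and the endocytic adaptor Dab2 (0.32), which was higher. Of the feedback genes, Nedd4l (-0.86), Pmepa1 (-0.60), Ldlrad4 (-0.42) and Ski (-0.17) were lower and Strap (0.18) was higher, and among the Smads and partners Map3k7 (0.22) was higher. Without replicate 3 of B6 with BMS493, 25 of the 75 were called, 23 of them among the 28: Ltbp3, Ski and Bhlhe40 were also lost, Eng and Itgb5 were gained, and Dab2 was at 0.20. Leaving out each of the 8 libraries in turn gave 19 (without A/J BMS493 replicate 4) to 34 (without B6 BMS493 replicate 1), and 17 of the 28 calls held in all 8 fits. Besides Col1a1 and Col3a1, those of Eln and Ski were lost in 6 of the 8, those of Bgn, Strap and Bhlhe40 in 5 (Bgn was at -0.28 without B6 BMS493 replicate 2), those of Postn and Ldlrad4 in 4 (Postn, still called, was at -0.43 without B6 BMS493 replicate 2), that of Ltbp3 in 2 and that of Nox4 in 1. A fit of only the 8 BMS493 libraries called 18 of the 75, with 4 higher and 14 lower.

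**Figure D4:**
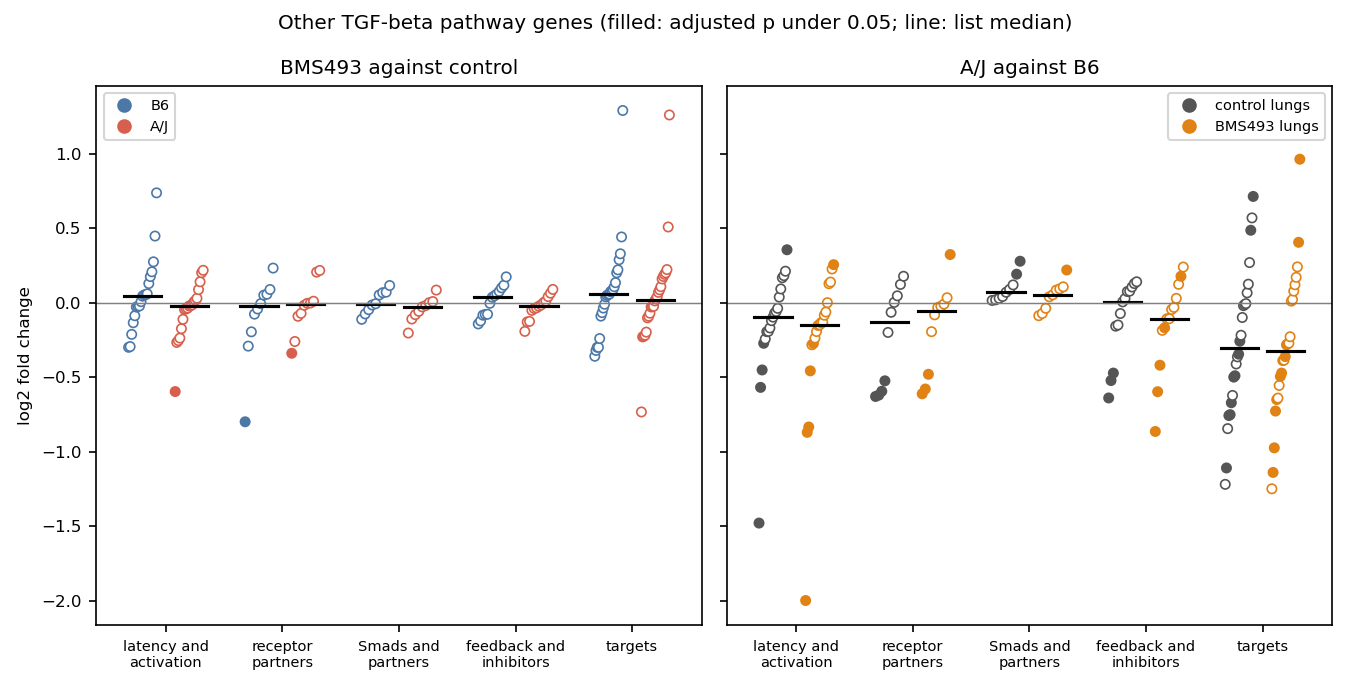
Log2 fold changes of the other pathway genes in 5 lists, with BMS493 against control in each strain (left) and A/J against B6 in each treatment (right). Each point is a gene, filled where the adjusted p was under 0.05, and each line is a list's median. With BMS493 the medians lie near 0 and few points are filled, while between strains the target list has medians of -0.30 and -0.32.

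Across the 16 libraries, with each group's mean removed from the log2 CPM, genes whose pattern was most like that of each of the 9 were named by Pearson's r as a description. Tgfb3 was most like the proteasome subunit gene Psmb3 (r = 0.917), the ubiquitin-conjugating enzyme gene Cdc34 (0.913) and Nedd8 (0.896), none of which was called with BMS493 in B6. Without B6 BMS493 replicate 3 these values were 0.868, 0.861 and 0.862, ranks 12, 19 and 16, and Trim27 (0.908) came first. Tgfbr2 was most like the endothelial receptor gene S1pr1 (r = 0.952), then Fstl1 (0.947), and Smad7 most like Nrp1 (0.944), a co-receptor of endothelium and axons, then Itpripl2 (0.93). Tgfbi was most like Ncmap (r = 0.969), Tgfb2 like Slc38a4 (0.939), Tgfb1 like Irx3os (0.904), Tgfbr3 like St7l (0.887), Ltbp1 like Glul (0.869) and Tgfbr1 like Nkapd1 (0.856). The first place was kept for 3 of the 9, Tgfbi, Tgfbr3 and Tgfbr1, without B6 BMS493 replicate 3. Slc38a4 then fell to rank 15 (0.85, with Rps6ka2 first at 0.927), Glul to rank 10 (0.751, with Ptk2b first at 0.883), Irx3os to rank 5, Nrp1 to rank 4 and S1pr1 to rank 2. Among the 36 pairs of the 9 genes, Tgfbr2 and Smad7 were most alike (r = 0.834) and Tgfb3 and Ltbp1 least (r = -0.487), with a median of 0.21. When that library was left out, Tgfb3 and Ltbp1 were at -0.153, Tgfb1 and Tgfbr1 were least alike (-0.412), Tgfbr2 and Smad7 were at 0.855, and the median was 0.285.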

How the data were processed

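Per the labels' protocols, poly(A) RNA was fragmented and made into complementary DNA with random hexamers. Per the submitters' processing notes, FastQC, cutadapt and STAR were used with the build GRCm39; their versions and the annotation are not given in the sources used here. The authors deposited raw counts of fragments per gene, in 3 columns (without strand and for each strand). Fragments outside genes (unmapped, multimapping, no feature or ambiguous) made up 23.1% to 28.3% and were left out. The first strand took 51.0% to 52.0% of strand-wise counts, so the column without strand was used. Multimapping fragments made up 2.81% to 3.29% in B6 and 3.62% to 4.06% in A/J libraries, all aligned to one build of C57BL/6J sequence; how strain variants bear on the counts was not tested.

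Python 3.11.15 joined the tables, and symbols from GENCODE M21 matched 51884 of 57180 identifiers. In R 4.3.3, edgeR 4.0.16 filtered genes (filterByExpr), scaled libraries (TMM) and fitted a robust quasi-likelihood model with 1 coefficient per group to all 16 libraries (12 residual degrees of freedom). Tests were two-sided, p-values were adjusted over 17276 genes by Benjamini-Hochberg, with calls at adjusted p under 0.05. Log2 CPM used a prior count of 2. Replicates differed beyond counting error in all 24 pairs within groups. On simulated counts of 16958 genes, 26% of genes changed by 0.25 on the log2 scale in B6 with BMS493 were called, 76% at 0.35 and 94% at 0.5. Of the 157 calls, 6.37% were of unchanged genes. Each gene had the same dispersion in all groups there, with no library apart. In the data, chi-square per gene between replicates was 5.42 to 35 in B6 with BMS493 and 3.75 to 5.49 in B6 controls, with 73 calls. These shares were thus not shown for the spread in the data.

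The 9 genes and all lists were chosen with earlier results of these data known. All 9 genes were named whatever their result, up to 5 called genes per list and comparison (all where the text gives more), and the 3 genes most like each of the 9, of which the first are printed. Alternatives were RLE scaling, DESeq2 1.42.0, other filters, each strand column and their sum, the library set (library numbers up to 8 against 9 and over), a replicate block, only the 8 libraries compared and each library left out. Fits of the other pathway genes without 1 library were added after seeing the data.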

Additional observations from a re-analysis of the deposited data

Results flagged for a closer look

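In 3 of the 36 groups of 4 libraries (9 genes in 4 groups), 1 library lay far from the other 3 by Dixon's ratio, with the gap to the nearest library over the whole range being above its 95% critical value. Chance gives this in about 5% of groups. Smad7 in B6 controls had a ratio of 0.916, with replicate 2 at 48.2 CPM and the others at 55.9 to 56.6. Tgfbr2 in A/J with BMS493 had a ratio of 0.881, with replicate 2 at 139.8 CPM and the others at 132.3 to 133.2. Tgfbi in B6 with BMS493 had a ratio of 0.868, with replicate 2 at 380.9 CPM and the others at 303.4 to 313.6.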

How the results depend on the processing

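Of 1098 fold changes of the 9 genes under 26 settings, 1048 kept their side of the threshold, 38 lost a call, 12 gained one and 0 called values reversed, while some uncalled values near 0 changed sign. With BMS493 in B6 the count of genes called was 1, and 0 with strand column 3 (Tgfb3 at -0.29, adjusted p = 0.111 in edgeR) or only the 8 libraries compared; leaving out 1 library gave 0 to 1. Averaged over strains it was 1, and 0 to 1 with 1 library left out. Between control strains it was 3, 6 with only the 8 libraries compared (Tgfbr2, Ltbp1 and Tgfbi were added) and 2 to 3 with 1 library left out. Between strains with BMS493 it was 3, 1 with strand column 4, 0 with only the 8 libraries compared and 0 to 4 with 1 library left out. Fits of 8 libraries hold fewer samples, and their counts moved both ways, to 6 from 3 in controls and to 0 from 3 with BMS493. The cause of these changes was not tested. In all genes, DESeq2 called 148 in B6 and 145 in A/J with BMS493 and 387 averaged over strains, against 73, 84 and 237; with no filter on low counts these were 260, 178 and 487, and leaving out 1 library gave 27 to 201 in B6, 52 to 90 in A/J and 165 to 371 averaged; fits of 8 libraries called 27 in B6, 133 in A/J and, between strains, 3707 in controls and 2346 with BMS493.

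Replicate numbers did not pair the libraries: 1 of 16 correlations between same-numbered libraries passed 0.1 (range -0.147 to 0.144) and 4 of 16 libraries correlated best with their own number. With a replicate block the counts of genes called were 1 in B6, 0 in A/J, 1 averaged, 0 for the strain difference of the effect, 3 between control strains and 4 between strains with BMS493, where Smad7 was added (-0.28, adjusted p = 0.0472 in edgeR). Depth limited Tgfb1 most, at 489 to 990 counts per library.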
